A study of Rattus norvegicus with 24 samples.

Results

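Translation factors are the proteins that bring ribosomes, messenger RNA and charged transfer RNAs together. Initiation factors (eIFs) load the initiator transfer RNA on the small ribosomal subunit, recruit the messenger RNA at its cap and join the large subunit, and elongation factors (eEFs) then deliver aminoacyl-transfer RNAs and move the ribosome along. Aminoacyl-tRNA synthetases charge the transfer RNAs, and Eprs1 encodes the bifunctional enzyme for glutamate and proline. The set described here holds all probe sets of both arrays whose single gene symbol was Eprs or Eprs1, or began with Eif or Eef followed by a number. It has 101 probe sets of 60 genes among 31142 probe sets other than controls, 67 on RAE230A and 34 on RAE230B. A further 7 probe sets with such a name beside a pseudogene or another symbol were left out.

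Left kidneys of male rats were compared between the congenic substrains ET3x2 and ET3x1 and their background strain, the inbred Dahl salt-sensitive SS/jr rat (S). From general knowledge of these substrains, they carry alleles of a salt-resistant strain on chromosome 3, around the endothelin gene Edn3, in an otherwise S genome. All rats ate 0.4% NaCl until 39 to 41 days of age and then 2% NaCl for 28 days, and were 67 to 69 days old at the end. Each strain gave 4 RNA pools (ET3x2 I, J, K and L, ET3x1 E, F, G and H, S A, B, C and D), each of 3 rats in ET3x2 and ET3x1 and of 2 rats in S. Each of the 12 pools was read once on each array, on 24 arrays in all. No group ate only the lower salt diet here, so every value describes kidneys after the salt period.

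All values are deposited log2 signals, and a difference of 1 is a doubling of signal. Of the 101 probe sets, 83 (57 genes) had a mean over the 12 pools above the filter level, 7.52 on RAE230A and 6.85 on RAE230B. The other 18 were dimmer, and Eef1akmt2, Eif2ak2 and Eif2ak4 had no probe set above it. Signals of different probe sets depend on their probes and are not compared as levels. S pools A and B and pool J of ET3x2 differed from the other 9 in a beta-actin control for RNA completeness, described further on. A second control, Gapdh, did not set pools A and B apart. In whole kidney RNA, fewer cells of a type and less RNA per cell cannot be told apart.

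In ET3x1 kidneys 1 translation factor probe set differed from S, a probe set of Eif5b, which was higher (adjusted p under 0.05 in limma's moderated test). That is 1 of 83, where 0.44% of all 21799 tested probe sets were called in this comparison and 0.431% were called higher. In ET3x2 kidneys 0 of 83 differed from S by limma, with 8 at an unadjusted p under 0.05 and a background of 0.344% called. Between ET3x2 and ET3x1, 3 of 83 differed and all 3 were lower in ET3x2, against 1.48% of all tested probe sets called in either direction and 1.39% called lower. These were probe sets of Eif5b, Eprs1 and Eif3a, the gene of the largest eIF3 subunit. Without ET3x1 pool F 6 probe sets were called between ET3x2 and ET3x1, where 2.24% of all tested probe sets were called. Without ET3x1 pool G or ET3x2 pool K 2 were called, where 0.904% and 0.610% of all were.

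Differences past an unadjusted threshold were about as frequent as among all probe sets. At an unadjusted p under 0.05 there were 12 of 83 between ET3x1 and S, 8 of 83 between ET3x2 and S and 11 of 83 between ET3x2 and ET3x1, where 11.8%, 10.9% and 13.1% of all tested probe sets had such a p in those comparisons. The median difference of the translation factors was -0.00024 for ET3x1 minus S, -0.0097 for ET3x2 minus S and 0.037 for ET3x2 minus ET3x1, beside -0.0047, 0.025 and 0.032 over all tested probe sets. The 95% interval of the difference lay within 0.5 log2 units of 0 for 68 of 83 (81.9%), 70 of 83 (84.3%) and 68 of 83 (81.9%) in those comparisons, against 89.6%, 91.4% and 90.4% of all tested probe sets.

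**Figure D1:**
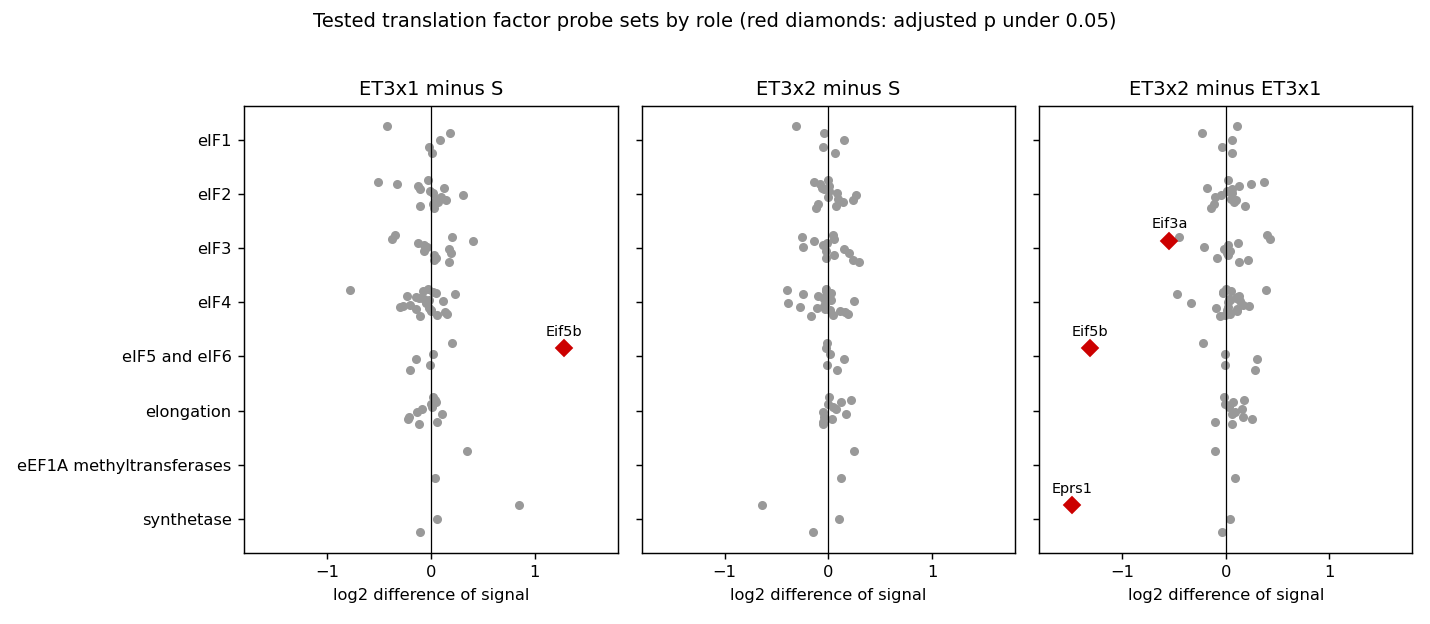
Log2 difference of signal for each of the 83 tested translation factor probe sets, by role, for ET3x1 minus S, ET3x2 minus S and ET3x2 minus ET3x1. Red diamonds are probe sets with an adjusted p under 0.05, 1 of Eif5b against S in ET3x1 and 1 each of Eif5b, Eprs1 and Eif3a between ET3x2 and ET3x1. The probe sets not called run from -0.78 to 0.85, from -0.64 to 0.30 and from -0.47 to 0.43 in these comparisons.

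Eif5b encodes eIF5B, the GTPase that joins the large ribosomal subunit at the start codon, and lies on chromosome 9. Its promoter window of 250 bases before the annotated gene start, from RefSeq on GRCr8 at chr9:47718456-47718705 on the plus strand, is shown because the gene gave the clearest separation of strains. CG dinucleotides are in capitals.
Eif5b: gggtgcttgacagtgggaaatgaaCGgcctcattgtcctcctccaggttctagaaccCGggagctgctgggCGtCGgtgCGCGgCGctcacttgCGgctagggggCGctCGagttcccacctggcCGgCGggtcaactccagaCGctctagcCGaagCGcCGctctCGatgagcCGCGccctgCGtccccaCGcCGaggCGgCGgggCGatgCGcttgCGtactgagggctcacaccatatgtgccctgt
The window holds 27 CG and 67.6% G and C. Windows of 58 of the 60 genes were found and had a median of 18 CG (range 2 to 42), against 5 over 33469 promoters of the annotation. Eprs1 had 25 CG and Eif3a 20, but the windows of these genes were taken from a start inside the annotated gene. They are therefore not of the same kind as that of Eif5b and are not shown. Both strands were searched for the GC box (GGGCGG), the CCAAT box, the E-box (CACGTG), the amino acid response element (TGATGNAA) and the TATA box (spelled TATAAA). None was in the windows of Eif5b and Eif3a. Eprs1 had 1 GC box, a motif that 30.5% of all promoters hold. The CCAAT box was in 34.0% of all promoters, the E-box in 5.59%, the amino acid response element in 3.40% and the TATA box in 12.9%.

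Eif5b probe set 1395237_at of RAE230B had signals of 8.68, 8.40, 8.34 and 8.46 in ET3x2 pools I to L, 9.72, 9.57, 9.87 and 9.95 in ET3x1 pools E to H and 8.69, 8.36, 8.67 and 8.25 in S pools A to D. All 4 ET3x1 pools lay above all 8 others, and the ET3x2 and S pools covered the same range. The means were 8.47 ± 0.15 in ET3x2, 9.78 ± 0.17 in ET3x1 and 8.49 ± 0.22 in S (SD, n = 4 each). ET3x1 was 2.44-fold above S (log2 difference 1.28, SE 0.11, limma adjusted p = 9.9e-05), and ET3x2 was lower than ET3x1 (log2 difference -1.31, SE 0.11, limma adjusted p = 6.4e-05). ET3x2 differed from S by -0.02, with a 95% interval of -0.27 to 0.22 and an adjusted p of 0.96.

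The other probe sets of Eif5b did not show this step. On RAE230A, 1388947_at had 9.30, 9.41, 9.35 and 9.60 in ET3x2 pools, 9.44, 9.44, 9.43 and 9.37 in ET3x1 pools and 9.64, 9.40, 9.52 and 9.04 in S pools. The strains overlapped, and the ET3x1 minus S difference was 0.02 with a 95% interval of -0.22 to 0.26. On RAE230B, 1396191_at had 7.47, 7.65, 7.38 and 7.47 in ET3x2 pools, 7.65, 7.89, 7.69 and 7.62 in ET3x1 pools and 7.87, 7.60, 7.58 and 6.998 in S pools. Here too the strains overlapped. Its ET3x1 minus S difference was 0.20 (95% interval -0.11 to 0.51, adjusted p = 0.674) and its ET3x2 minus ET3x1 difference was -0.22 (adjusted p = 0.588).

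The probe sets of a gene on one array were set against each other within each pool, so that a shift that both register alike drops out. The gaps are made of the signals of the single probe sets and are no independent result. For Eif5b, 1395237_at minus 1396191_at was 1.21, 0.75, 0.95 and 0.99 in ET3x2 pools, 2.07, 1.68, 2.19 and 2.33 in ET3x1 pools and 0.82, 0.76, 1.09 and 1.26 in S pools. The ET3x1 pools again stood above all others. The gap between the probe sets was wider by 1.08 in ET3x1 than in S (SE 0.15, limma adjusted p = 0.00118) and its ET3x2 minus ET3x1 change was -1.09 (SE 0.15, limma adjusted p = 0.000834). Between ET3x2 and S it changed by -0.0045 (adjusted p = 0.993). The dimmer member of the pair, 1396191_at, lay below the alternative filter at the 50th percentile.

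**Figure D2:**
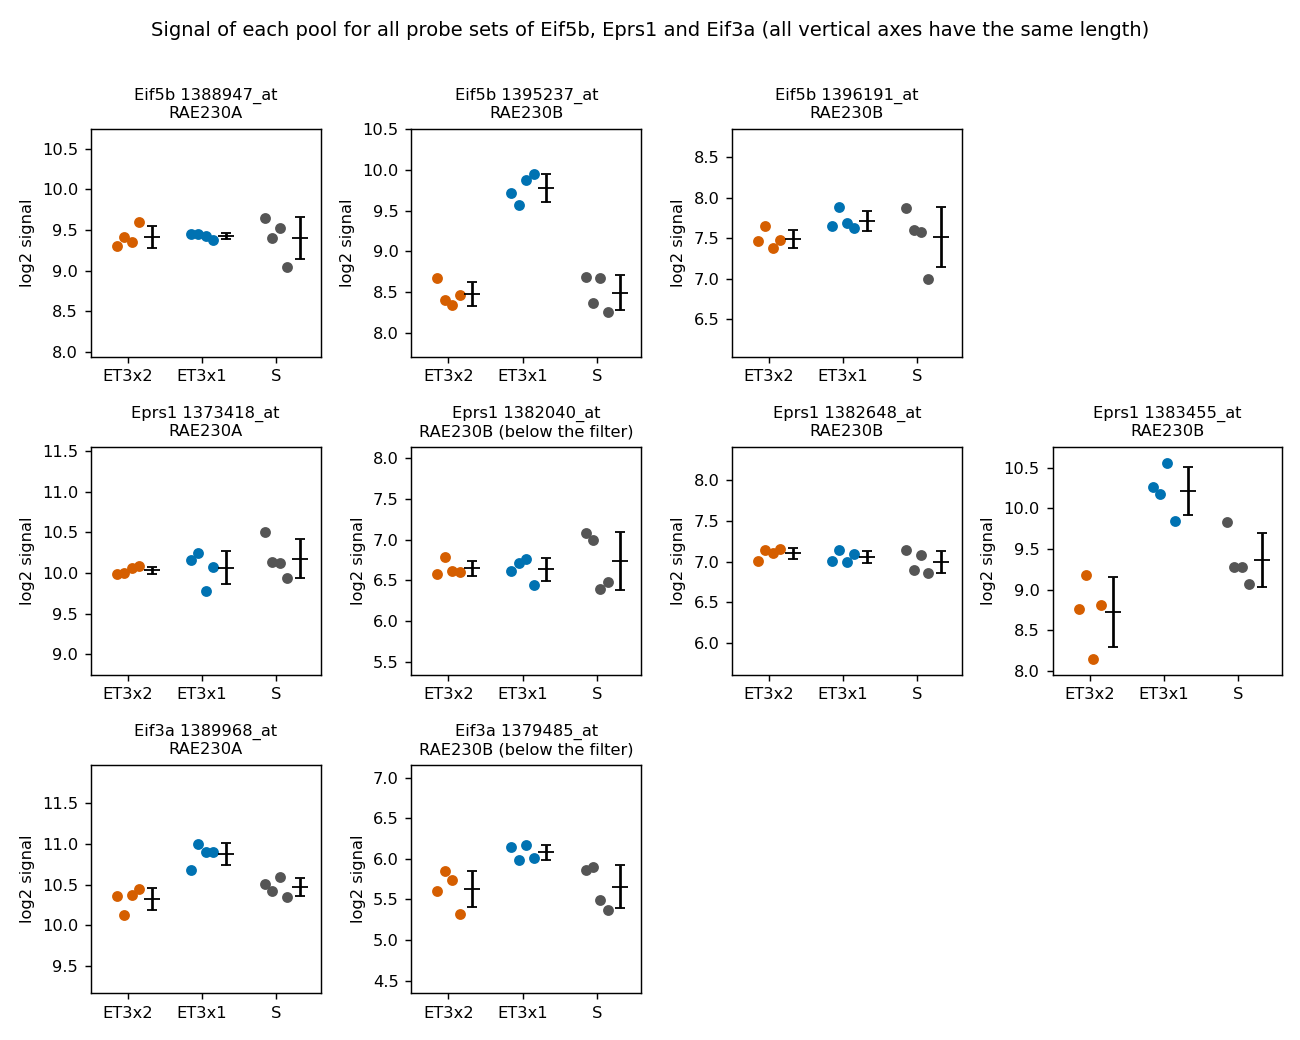
Log2 signal of every pool for all probe sets of Eif5b, Eprs1 and Eif3a, with ET3x2, ET3x1 and S from left to right, points for pools and bars for mean and SD. Eif5b 1395237_at, Eprs1 1383455_at and Eif3a 1389968_at have all ET3x1 pools above all ET3x2 pools, while Eif5b 1388947_at and 1396191_at and Eprs1 1373418_at and 1382648_at have overlapping strains.

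Eprs1, on chromosome 13, had 4 probe sets, 3 of them tested, and 1 of these separated the strains. On RAE230B, 1383455_at had 8.76, 9.19, 8.15 and 8.82 in ET3x2 pools, 10.27, 10.18, 10.56 and 9.84 in ET3x1 pools and 9.84, 9.27, 9.28 and 9.06 in S pools. Every ET3x1 pool was above every ET3x2 pool, and the S pools lay between, with S pool A close to ET3x1 pool H and S pool D below ET3x2 pool J. The means were 8.73 ± 0.43 in ET3x2, 10.21 ± 0.30 in ET3x1 and 9.36 ± 0.33 in S (SD, n = 4 each). ET3x2 was 2.79-fold below ET3x1 (log2 difference -1.48, SE 0.21, limma adjusted p = 0.00236). Against S the difference was 0.85 in ET3x1 (adjusted p = 0.116) and -0.64 in ET3x2 (adjusted p = 0.310), and neither passed.

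With the beta-actin 5' minus 3' control signal as a covariate, the difference of Eprs1 1383455_at between ET3x1 and S was 0.91 (limma adjusted p = 0.0296). It was 1.04 in a fit that left out S pools A and B with ET3x2 pool J (limma adjusted p = 0.0465), and S was then read from pools C and D only. These were the only 2 of 20 alternative fits in which this difference passed. In the others its limma adjusted p rose to as much as 0.297.

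The remaining tested Eprs1 probe sets had overlapping strains. 1373418_at of RAE230A had 9.99, 9.998, 10.06 and 10.08 in ET3x2 pools, 10.16, 10.24, 9.78 and 10.08 in ET3x1 pools and 10.51, 10.13, 10.12 and 9.94 in S pools. Its ET3x2 minus ET3x1 difference was -0.04 (95% interval -0.29 to 0.22). 1382648_at of RAE230B lay between 7.01 and 7.15 in ET3x2, 6.99 and 7.14 in ET3x1 and 6.87 and 7.15 in S, and 1382040_at lay below the filter. The within-pool gap of 1383455_at over 1382648_at was 1.76, 2.04, 1.04 and 1.66 in ET3x2 pools, 3.25, 3.03, 3.57 and 2.75 in ET3x1 pools and 2.69, 2.37, 2.20 and 2.20 in S pools. It was lower in ET3x2 than in ET3x1 by -1.53 (SE 0.21, limma adjusted p = 0.000834), with all ET3x2 pools below all S pools and all S pools below all ET3x1 pools. Against S its change was 0.79 in ET3x1 (adjusted p = 0.0566) and -0.74 in ET3x2 (adjusted p = 0.209). The dimmer member, 1382648_at, lay near the filter level of 6.85 and ranged over only 0.29 log2 units across the 12 pools. The gap therefore largely repeats the differences of 1383455_at.

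Eif3a, on chromosome 1, encodes the scaffold subunit of eIF3, the complex that bridges the messenger RNA and the small ribosomal subunit. 1389968_at of RAE230A had 10.36, 10.13, 10.37 and 10.45 in ET3x2 pools, 10.68, 11.01, 10.90 and 10.90 in ET3x1 pools and 10.51, 10.43, 10.60 and 10.35 in S pools. The ET3x1 pools were the 4 highest, and ET3x2 and S overlapped. ET3x2 was 1.46-fold below ET3x1 (log2 difference -0.54, SE 0.093, limma adjusted p = 0.0140). The adjusted p was 0.0581 without ET3x1 pool G and 0.0501 without ET3x2 pool K, so the call ended without either. The ET3x1 minus S difference was 0.40 (adjusted p = 0.114) and the ET3x2 minus S difference -0.14 (adjusted p = 0.591).

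The other Eif3a probe set, 1379485_at of RAE230B, was below the filter and gets no fold. Its signals were 5.60, 5.85, 5.74 and 5.33 in ET3x2 pools, 6.14, 5.99, 6.18 and 6.01 in ET3x1 pools and 5.87, 5.90, 5.49 and 5.38 in S pools. The ET3x1 pools were again the 4 highest. Fitted without the filter it had an unadjusted p of 0.0033 between ET3x2 and ET3x1 (adjusted p = 0.131).

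A dim probe set of Eif4e3, which encodes a cap-binding protein related to eIF4E, had the same order of strains and was chosen for mention after its values were seen. 1391935_at of RAE230B had 6.56, 6.57, 6.30 and 6.51 in ET3x2 pools, 7.08, 7.04, 7.28 and 6.93 in ET3x1 pools and 6.92, 6.58, 6.37 and 6.33 in S pools. All ET3x1 pools lay above the rest, with S pool A just below ET3x1 pool H. It passed only in the fit without a filter (ET3x2 against ET3x1, limma adjusted p = 0.0204). The Eif4e3 probe set above the filter, 1390396_at of RAE230A, differed by -0.02 in that comparison.

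Among all genes of the set, 28 had several probe sets and 20 of these had at least 2 above the filter, counting for Eif4a3, Eif4enif1 and Eif4h the same probe set on each array. The tested probe sets of a gene had differences of one sign in 11 of 20 genes for ET3x1 minus S, 15 of 20 for ET3x2 minus S and 11 of 20 for ET3x2 minus ET3x1. In no comparison were all probe sets of such a gene called. In 10 pairs of 9 genes both members lay on the same array and were compared within pools. The gap between them changed in 1 of 10 pairs between ET3x1 and S (Eif5b) and in 2 of 10 between ET3x2 and ET3x1 (Eif5b and Eprs1), where 1.41% and 3.94% of the 2764 such pairs of all genes were called. Between ET3x2 and S 0 of 10 were called by limma, with 1 of 10 at an unadjusted p under 0.05, against backgrounds of 0.109% and 8.61% of all pairs.

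The pairs of Eif4g1, the gene of the cap scaffold eIF4G1, were among those not called. The gap of 1388322_at over 1390340_a_at on RAE230A was 3.17, 2.68, 3.43 and 3.64 in ET3x2 pools, 2.71, 3.02, 2.22 and 2.63 in ET3x1 pools and 2.80, 2.89, 3.45 and 2.94 in S pools. The strains overlapped, and the ET3x2 minus ET3x1 change was 0.58 (95% interval 0.10 to 1.06, adjusted p = 0.198). On RAE230B the gap of 1385152_at over 1395702_at changed by -0.02 in this comparison (95% interval -0.30 to 0.27). For Eef1a1, which encodes the main carrier of aminoacyl-transfer RNA, the gap changed by -0.08 in the same comparison (95% interval -0.27 to 0.11).

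**Figure D3:**
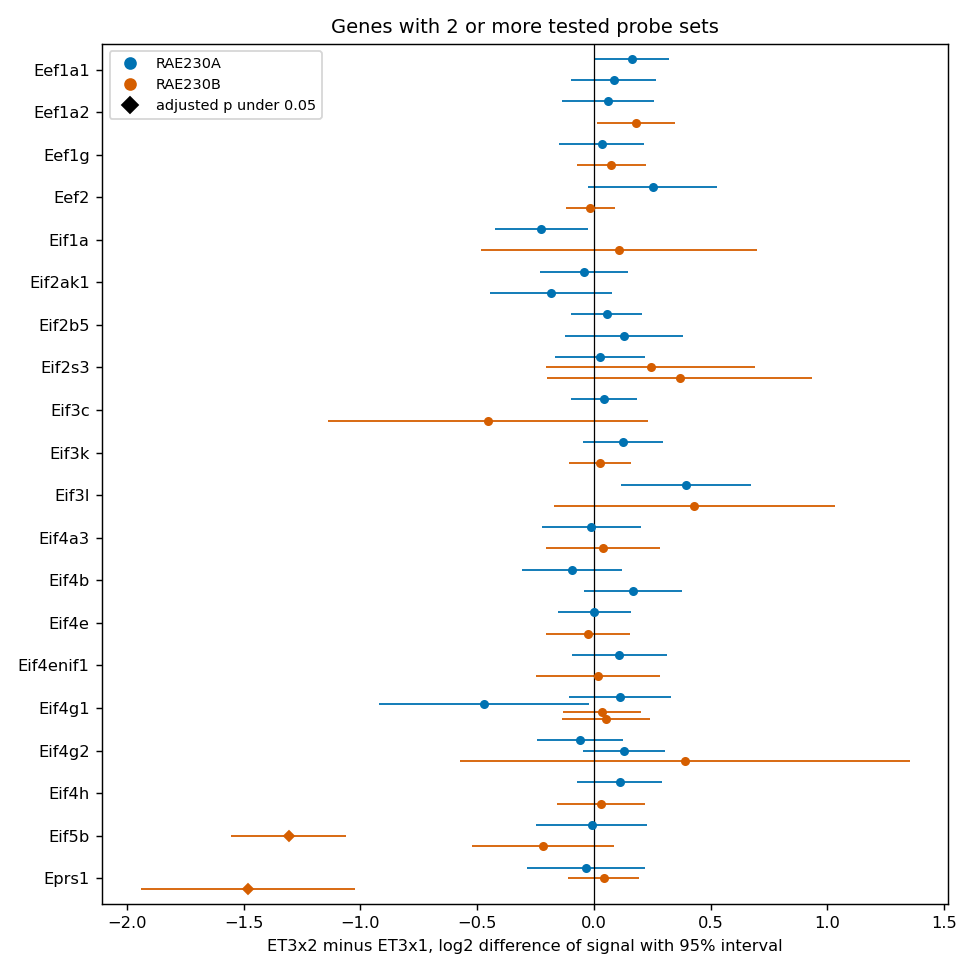
ET3x2 minus ET3x1 log2 difference, with 95% interval, of every tested probe set of the 20 genes that have at least 2, RAE230A in blue and RAE230B in orange, diamonds for an adjusted p under 0.05. Eif5b and Eprs1 each have 1 probe set far to the left, at -1.31 and -1.48. The other Eif5b probe sets lie at -0.01 and -0.22, and the other Eprs1 probe sets shown at -0.04 and 0.04.

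Pools of the strains compared did not overlap for 6 of 83 probe sets between ET3x1 and S, 2 of 83 between ET3x2 and S and 6 of 83 between ET3x2 and ET3x1. Those are 7.23%, 2.41% and 7.23%, where 6.4%, 5.95% and 9.15% of all tested probe sets had this property. Between ET3x1 and S they were the called Eif5b probe set with Eprs1 1383455_at, Eif3a 1389968_at, Eif2ak1 1374402_at, Eif4g2 1388359_at and Eif5a. Between ET3x2 and S they were Eif4e2 and Eif6, and between ET3x2 and ET3x1 the 3 called probe sets with Eif4g3 1373364_at, Eif5a and Eif6.

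The start of initiation is served by eIF1 and eIF1A, which keep the scanning ribosome open, and by eIF2, which carries the initiator transfer RNA and is recycled by eIF2B. Of the 5 tested probe sets of the eIF1 group 0 passed in any comparison, and their differences ran from -0.42 to 0.18 for ET3x1 minus S and from -0.31 to 0.15 for ET3x2 minus S. Of the 16 tested probe sets of genes named Eif2 0 passed either, with medians of 0.02 and -0.0015 for these comparisons. They are those of eIF2, eIF2B and the eIF2 kinases, and by name also Eif2a and Eif2d. The kinases shut down eIF2 under stress, and the one that senses heme deficiency, Eif2ak1, had the largest positive differences from S in this group. 1374402_at had 10.68, 10.51, 10.66 and 10.68 in ET3x2 pools, 10.64, 10.53, 10.85 and 10.68 in ET3x1 pools and 10.22, 10.52, 10.38 and 10.34 in S pools. S pool B overlapped the ET3x2 pools and lay just below the lowest ET3x1 pool. The difference was 0.31 for ET3x1 minus S (unadjusted p = 0.0033, adjusted p = 0.188) and 0.27 for ET3x2 minus S (unadjusted p = 0.0089, adjusted p = 0.276), and both comparisons share the S pools. The second Eif2ak1 probe set, 1387272_at, gave 0.12 and -0.06.

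Of 14 tested probe sets of eIF3 subunits only that of Eif3a passed, in ET3x2 against ET3x1. Eif3k, a small subunit, had 11.41, 11.24, 11.37 and 11.34 in ET3x2 pools, 11.26, 11.22, 11.15 and 11.23 in ET3x1 pools and 11.25, 10.96, 10.996 and 10.96 in S pools on 1372735_at. S pool A lay within the congenic range and the 3 other S pools below it. The ET3x2 minus S difference was 0.30 (unadjusted p = 0.0021, adjusted p = 0.186), and the other Eif3k probe set, 1381339_at, gave 0.05. Eif3l 1398929_at had 11.77, 11.80, 11.68 and 11.53 in ET3x2 pools, 11.29, 11.73, 10.98 and 11.19 in ET3x1 pools and 11.74, 11.51, 11.76 and 11.58 in S pools. ET3x1 pool F lay among the other strains and the 3 other ET3x1 pools below them. Its ET3x2 minus ET3x1 difference was 0.39 (adjusted p = 0.169), and that of Eif3l 1390880_at was 0.43 with a wider 95% interval of -0.17 to 1.03.

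The eIF4 proteins bind the cap (eIF4E), unwind the leader (eIF4A, helped by eIF4B and eIF4H) and hold the complex together (eIF4G), and the 4E-binding proteins block eIF4E. Of the 25 tested probe sets of genes named Eif4, those of Eif4enif1 among them, 0 passed in any comparison. The medians were -0.04 for ET3x1 minus S, -0.03 for ET3x2 minus S and 0.03 for ET3x2 minus ET3x1. Eif4g3 1373364_at, of the third eIF4G gene, had 9.37, 9.55, 9.13 and 9.36 in ET3x2 pools, 9.74, 9.80, 9.64 and 9.59 in ET3x1 pools and 9.91, 9.78, 9.74 and 9.55 in S pools. The ET3x2 pools were below all ET3x1 pools, and ET3x2 pool J reached the lowest S pool. The differences were -0.39 for ET3x2 minus S (unadjusted p = 0.0014, adjusted p = 0.160) and -0.34 for ET3x2 minus ET3x1 (adjusted p = 0.127). The 3 genes of 4E-binding proteins lay closer together, with differences from -0.12 to 0.02 against S.

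Of eIF5A, eIF5B and eIF6, with 6 tested probe sets, only the Eif5b probe set passed. Eif5a, the hypusine-carrying factor that helps ribosomes through difficult peptide bonds, had 13.23, 13.10, 13.16 and 13.01 in ET3x2 pools, 12.89, 12.91, 12.74 and 12.83 in ET3x1 pools and 13.10, 13.07, 13.04 and 12.98 in S pools. The ET3x1 pools were the 4 lowest. The ET3x2 minus ET3x1 difference was 0.28 (adjusted p = 0.0703) and the ET3x1 minus S difference -0.20 (adjusted p = 0.251). Eif6, which keeps the ribosomal subunits apart until the large subunit is mature, had 12.01, 11.96, 12.04 and 11.97 in ET3x2 pools, 11.69, 11.93, 11.54 and 11.62 in ET3x1 pools and 11.92, 11.74, 11.93 and 11.79 in S pools. The ET3x2 pools were the 4 highest, by 0.15 against S (adjusted p = 0.525) and by 0.30 against ET3x1 (adjusted p = 0.116).

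Of the 12 tested probe sets of the elongation group, which by name also holds Eef1e1 and the kinase Eef2k, 0 passed in any comparison. Against S all 12 had 95% intervals within 0.5 log2 units of 0 in both ET3x2 and ET3x1, and 11 of 12 did between ET3x2 and ET3x1. Eef1a1 1388110_at had 14.03, 13.997, 14.12 and 14.07 in ET3x2 pools, 13.90, 14.26, 13.76 and 13.96 in ET3x1 pools and 14.09, 14.13, 14.13 and 14.09 in S pools. The spread was widest in ET3x1, around the other strains. Eef2, the translocase, had differences of 0.25 between ET3x2 and ET3x1 on 1370003_at (95% interval -0.02 to 0.53) and -0.02 on 1396549_at. Of the eEF1A methyltransferases Eef1akmt1 had 8.26, 7.80, 8.16 and 8.23 in ET3x2 pools, 8.19, 8.36, 8.26 and 8.03 in ET3x1 pools and 7.85, 7.48, 8.04 and 8.08 in S pools. Its pools overlapped between strains, and the differences from S were 0.25 in ET3x2 (adjusted p = 0.496) and 0.35 in ET3x1 (adjusted p = 0.290).

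Several RAE230B probe sets had a wide range over the 12 pools. With a threshold chosen after the values were seen, 9 of 83 members ranged over more than 1 log2 unit across the 12 pools, 1 of 61 on RAE230A and 8 of 22 (36.4%) on RAE230B, against 4.62% of all tested RAE230B probe sets. Eif5b 1395237_at and Eprs1 1383455_at are 2 of them, and their ranges lie largely between strains, with SDs within strains of 0.15 to 0.22 and 0.30 to 0.43. The other 6 on RAE230B, of Eif1a, Eif2s3 (2 probe sets), Eif3c, Eif3l and Eif4g2, were highest in S pool A or ET3x2 pool J. The range of Eif2s3 1393237_at came mostly from ET3x1 pool G at 6.51, with the other pools at 7.30 to 7.89. In this probe set pool A was at 7.89, ET3x1 pool F at 7.73, pool J at 7.68 and pool B at 7.54. Eif4g2 1397520_at, of the eIF4G relative that lacks the eIF4E-binding part, had 9.99, 11.42, 10.08 and 9.58 in ET3x2 pools, 9.92, 10.55, 9.27 and 9.77 in ET3x1 pools and 11.52, 11.27, 10.36 and 9.51 in S pools. Pools A, B and J stood at the top, and its differences of -0.78 for ET3x1 minus S and -0.40 for ET3x2 minus S had adjusted p of 0.602 and 0.803. The Eif4g2 probe sets of RAE230A, 1367469_at and 1388359_at, gave -0.11 and -0.23 for ET3x1 minus S. With Eif4g2 1397520_at, the lowest members for ET3x1 minus S were Eif2s3 1397693_at at -0.51 and Eif1a 1397892_at at -0.42. Their limma adjusted p were 0.549 and 0.650.

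The arrays read beta-actin near both of its ends, and the 5' probe set comes closer to the 3' one where more of the transcript was labelled. The 5' minus 3' signal was highest in pools A, B and J. It was -1.39 to -1.07 in these 3 pools on RAE230B, against -2.11 to -1.52 in the other 9, and -1.27 to -1.14 against -2.10 to -1.66 on RAE230A. The same measure of Gapdh was highest in pool J on both arrays but did not set pools A and B apart. On RAE230B it was -0.61 in J, -0.87 in A and -0.90 in B, with ET3x1 pool F at -0.62 and pool C at -0.81. On RAE230A it was -0.64 in J, -0.81 in A and -0.75 in B, with pool F at -0.71. Pool A, B or J was the highest for 28 of 83 translation factor probe sets (33.7%), against 30.04% of all tested ones. ET3x1 pool F was the highest for 24 (28.9%), against 14.5% of all tested probe sets, and ET3x1 pool G was the lowest for 25 of 83, against 18.9% of all. Without pools A, B and J, Eif3c 1397674_at differed by 0.71 between ET3x1 and S (limma adjusted p = 0.0131) and by -0.80 between ET3x2 and ET3x1 (limma adjusted p = 0.00164). With all pools these differences were 0.20 and -0.45 and did not pass. The fit without pools A, B and J read S from pools C and D only. It was the only 1 of 20 alternative fits in which either difference passed, with limma adjusted p up to 0.982 and 0.851 in the others. The other Eif3c probe set, 1388378_at, gave -0.06 and 0.04 in these comparisons with all pools. For the called probe set of Eif5b the ET3x1 minus S difference lay between 1.21 and 1.35 in all 20 alternative fits. Those with the beta-actin signal as a covariate and without pools A, B and J were among them. With the beta-actin signal as a covariate, 4 probe sets passed as lower in ET3x2 than in S. In that fit 1.98% of all tested probe sets were called in either direction. They were Eif4g2 1397520_at at -0.73 (limma adjusted p = 0.00468), Eif4g3 1373364_at at -0.39 (limma adjusted p = 0.0358), Eif1a 1397892_at at -0.50 (limma adjusted p = 0.0485) and Eif2s3 1397693_at at -0.33 (limma adjusted p = 0.0488).

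**Figure D4:**
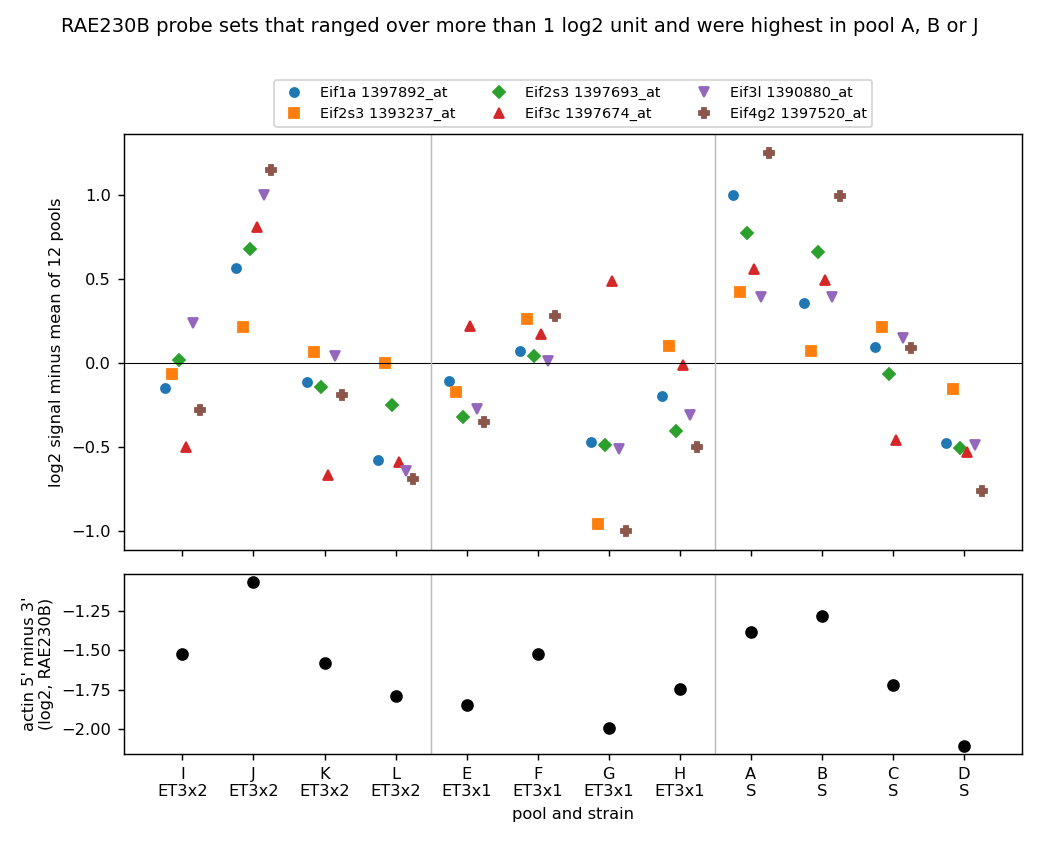
Upper panel, log2 signal minus the mean of the 12 pools for the 6 probe sets of RAE230B that ranged over more than 1 log2 unit and were highest in pool A, B or J. The lower panel shows the beta-actin 5' minus 3' control signal of the same arrays, with ET3x2, ET3x1 and S from left to right, and pools J, A and B are highest in it. The 6 probe sets were chosen for being highest in these pools, so a likeness of the panels was fixed in part by the choice. Eif5b 1395237_at and Eprs1 1383455_at also ranged over more than 1 log2 unit, were highest in ET3x1 pools H and G and are not shown.

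On chromosome 3 lay 8 of the 101 probe sets, of Eef1a2, Eif2ak4, Eif2s2, Eif3j, Eif3m and Eif6. Of these 6 were tested and 0 passed in any comparison. The limits of the congenic segments are not given in the sources used here. Eef1a2, the form of eEF1A known from muscle and neurons, lies 56 protein-coding genes past Edn3. Its probe set 1395478_at had 8.79, 8.57, 8.50 and 8.69 in ET3x2 pools, 8.47, 8.41, 8.43 and 8.52 in ET3x1 pools and 8.44, 8.32, 8.59 and 8.31 in S pools. The pools overlapped, and the ET3x2 minus S difference was 0.22 (unadjusted p = 0.013, adjusted p = 0.321). The called genes lie on chromosomes 9, 13 and 1.

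The same probe set was printed on both arrays for Eif4a3, Eif4enif1 and Eif4h. Eif4a3, the helicase of the exon junction complex, differed by 0.05 on RAE230A and 0.15 on RAE230B for ET3x1 minus S, and by 0.04 and 0.19 for ET3x2 minus S. None of the 3 passed on either array.

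Partners of the translation factors were counted from lists of known genes. Of 29 tested probe sets of other synthetases and their scaffold, for 20 genes, 1 was higher in ET3x1 than in S, 0 differed between ET3x2 and S, and 1 was higher in ET3x2 than in ET3x1. The median differences of these 29 were -0.08, -0.02 and 0.05. Of all tested probe sets 0.44%, 0.344% and 1.48% were called in these comparisons. The first was Aimp1 1379810_at, of a scaffold protein of the multisynthetase complex that also holds Eprs1, at 8.98 ± 0.19 in ET3x2, 9.37 ± 0.10 in ET3x1 and 8.85 ± 0.18 in S (SD, n = 4 each). Its ET3x1 minus S difference was 0.52 (limma adjusted p = 0.0413), it did not pass in 10 alternative settings, 9 of them with 1 of pools B to I or K left out (adjusted p up to 0.137), and the other Aimp1 probe set gave 0.13. The second was Wars1 1388574_at, of the tryptophan synthetase, at 10.26 ± 0.05 in ET3x2, 9.85 ± 0.11 in ET3x1 and 10.13 ± 0.14 in S (SD, n = 4 each). It was higher in ET3x2 than in ET3x1 by 0.41 (limma adjusted p = 0.0362) and lost the call in 7 settings, 6 of them with 1 of pools E, G, I, J, K or L left out (adjusted p up to 0.142). Of 6 probe sets of termination and recycling factors, 19 of cap and poly(A) partners and 10 of mitochondrial factors, 0 passed in any comparison.

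Of 9 kidney marker probe sets 7 were above the filter, and both of Nphs1, a podocyte marker, were below it. Umod, a tubule marker, was at 14.3 to 14.4 in ET3x2, 14.3 to 14.4 in ET3x1 and 14.4 to 14.5 in S. Of 4 skeletal muscle marker probe sets 0 were above the filter. Jchain, a plasma cell marker, averaged 9.85 ± 0.19 in ET3x2, 10.35 ± 0.45 in ET3x1 and 8.63 ± 0.15 in S on 1383163_at (SD, n = 4 each). Of 4 plasma cell marker probe sets 2 were higher in ET3x1 than in S, 1 was higher in ET3x2 than in S and 0 passed between ET3x2 and ET3x1. The shares of all tested probe sets called were 0.44%, 0.344% and 1.48%. The called plasma cell marker probe sets were all of Jchain. Mzb1 was 0.21 above S in ET3x1 and 0.12 above S in ET3x2 but did not pass (limma adjusted p = 0.126 and 0.484). Xbp1 differed from S by -0.01 in ET3x1 and -0.11 in ET3x2. All 4 plasma cell marker probe sets had lower means in ET3x2 than in ET3x1, with Jchain 1383163_at at -0.50 (unadjusted p = 0.0144, limma adjusted p = 0.273). Of the other lists, all tested T and B cell (4), erythroid (2), adipose (2) and adrenal (1) probe sets had higher means in ET3x2 than in ET3x1. So did 5 of 7 kidney and 1 of 3 myeloid ones, and 0 of these lists' probe sets passed in that comparison. The part of any of these cells in the translation factor values was not tested.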

How the data were processed

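Kidney RNA pools of rats were measured on Affymetrix RAE230A and RAE230B arrays. The deposited tables give 1 value per probe set and pool, and these were read as log2 signals from their range (4.97 to 15.2 on RAE230A, 4.10 to 14.3 on RAE230B). How the authors summarised and normalized the arrays is not given in the sources used here. Column medians were 8.49 to 8.60 and 7.55 to 7.62, and no scaling was added. Arrays have no read depth, and their number limits the precision.

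Gene symbols came from the platform annotation, updated through gene identifiers to RefSeq (GRCr8). All 101 members matched. On RAE230A 12783 probe sets had 1 symbol, 312 several and 2771 none, and on RAE230B 7564, 100 and 7612. The 57 control probe sets of each array and probe sets with a mean under the 30th percentile of their array were left out. The 11106 and 10693 others were fitted with limma 3.58.1 (lmFit, eBayes with a trend) in R 4.3.3, with the 3 strains in 1 model. Tests were two-sided, and p-values were Benjamini-Hochberg adjusted over all tested probe sets of an array and comparison, with a threshold of 0.05. Within-pool differences of probe sets of one gene were fitted likewise over all 2764 pairs. One pool was 1 replicate, and a p-value sets a difference against the variation among pools, which hold different rats. The fit was tested on simulated data. Plots were made in Python 3.11.15 (matplotlib 3.10.9).

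Named with values were all probe sets of Eif5b and Eprs1, all called members with the other probe sets of their genes, and the 3 highest and 3 lowest members per comparison. Eif5a, Eif6, Eif4e3 and some others were added after their values were seen. The members, lists and alternatives were chosen with earlier results of these data known, so the calls of Eif5b, Eprs1 and Eif3a are not independent evidence. The alternatives were filters at the 50th percentile or none, quantile normalization, a prior without a trend, array weights, only the 2 strains compared, the beta-actin 5' minus 3' signal as a covariate, leaving out pools A, B and J, and leaving out each pool.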

Additional observations from a re-analysis of the deposited data

Results flagged for a closer look

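The difference from S was not the same in ET3x2 and ET3x1 for 3 probe sets, where the change in ET3x2 minus that in ET3x1 passed the test of the difference itself (limma). This is the ET3x2 against ET3x1 comparison already given, and no additional test. It was -1.31 for Eif5b 1395237_at, -1.48 for Eprs1 1383455_at and -0.54 for Eif3a 1389968_at.

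In 3 of 54 groups of 4 pools examined, 1 pool stood further from the others than Dixon's 95% limit allows, and chance flags about 1 in 20 groups. Eif2ak1 1374402_at was 10.51 in ET3x2 pool J, with the other ET3x2 pools at 10.66 to 10.68. Eif3k 1372735_at was 11.25 in S pool A, with the other S pools at 10.96 to 10.996. Eprs1 1382040_at, which is below the filter, was 6.79 in ET3x2 pool J, with the other ET3x2 pools at 6.58 to 6.62. Pools A and J are among the 3 with the highest beta-actin 5' minus 3' signal.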

How the results depend on the processing

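Eif5b 1395237_at passed in ET3x1 against S (adjusted p up to 0.00299) and in ET3x2 against ET3x1 (up to 0.000457) under all 20 alternatives, and Eprs1 1383455_at in ET3x2 against ET3x1 (up to 0.0130). No difference that passed changed sign. In ET3x1 against S the called members went to 2 with the beta-actin covariate and 3 without pools A, B and J, from 1. Of all tested probe sets 0.986% and 0.537% were called in these fits, against 0.440% as reported. In ET3x2 against S they were 2 with array weights and 4 with the covariate, in place of 0, where 1.92% and 1.98% of all tested probe sets were called, against 0.344% as reported. In ET3x2 against ET3x1 the called members were 3 (1.48% of all) as reported and 7 with array weights (8.43%, where 7.61% of all were called). They were 5 without pools A, B and J (1.55% of all). With quantile normalization, the covariate or no filter they were 4 (1.81%, 2.30% and 1.17% of all). Leaving out 1 pool gave 2 to 6 (0.610% to 2.24% of all). The members gained there were Eif5a with array weights and without pool F or L (adjusted p 0.00773 to 0.0438), Eif6 with array weights, quantile normalization and without pool F (0.00807 to 0.0370), Eif3l 1398929_at with array weights and without pool F (0.0112 and 0.0218), Eif4g3 1373364_at with array weights and the covariate (0.0142 and 0.0277), Eif3c 1397674_at and Eif4g1 1390340_a_at without pools A, B and J (0.00164 and 0.0313), and Eif4e3 1391935_at without a filter. For pairs of probe sets of one gene, ET3x1 against S gave 0 with the filter at the 50th percentile, 2 without a filter, 2 with the covariate, 2 without pools A, B and J and 1 to 2 with one pool left out, in place of 1. ET3x2 against ET3x1 gave 0 pairs with the filter at the 50th percentile in place of 2, since the second probe sets of Eif5b and Eprs1 then drop out. The shares of all pairs called in these fits are not given here, so these pair counts stand without a background. The cause of the other changes was not tested. No paired analysis was possible because the pools of different strains share no letter or number. With 4 pools per strain and an unknown summarisation, small differences of dim probe sets have little weight, and 1 array per pool and chip leaves the spread of the assay unmeasured.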
